A study of Homo sapiens with 4 samples.

Results

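The clustered replication-dependent histone genes encode the 4 core histones H2A, H2B, H3 and H4 and the linker histone H1 that package newly made DNA. They were taken as the protein-coding genes whose current symbol starts with H2AC, H2BC, H3C or H4C, or is H1-1 to H1-6. The rule gave 70 genes, beside 19328 protein-coding symbols in the series. There were 6 H1, 17 H2A, 19 H2B, 13 H3 and 15 H4 genes. An annotated transcript could be matched for 44 of the 70, and these were 6 H1, 13 H2A, 13 H2B, 6 H3 and 6 H4 genes. The other 26 are not analysed here: H2AC4, H2AC15, H2AC16 and H2AC19; H2BC3, H2BC6, H2BC9, H2BC14, H2BC17 and H2BC26; H3C1, H3C2, H3C3, H3C6, H3C7, H3C8 and H3C11; H4C1, H4C4, H4C5, H4C7, H4C9, H4C12, H4C13, H4C14 and H4C15. Sums over the H3 and H4 classes therefore cover 6 of 13 and 6 of 15 genes.

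RNA came from WI-38, an established human line of fetal lung fibroblasts with a limited replicative lifespan. The 4 groups were young whole cells and young mitoplasts at population doubling level 21, and senescent whole cells and senescent mitoplasts at level 60. Mitoplasts are mitochondria without their outer membrane, here treated with RNase A to remove RNA from outside, per the labels' protocols. Each group was 1 library of 1 line, so no ratio below has a replicate check, and a difference between libraries cannot be told apart from a difference between conditions. Levels are given in FPKM, the fragments of a transcript divided by its length and scaled to the mapped fragments of the library. Ratios are log2((A + 1)/(B + 1)) of FPKM, a scale that shrinks ratios of genes near 0. A gene was called lower or higher at a ratio of −1 or less or of 1 or more. The depth of the libraries is unknown.

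Cells need new histones while they copy their DNA, and the clustered genes supply them in S phase. Their mRNAs are the textbook exception among animal mRNAs: most are made from genes without introns and end in a short stem-loop, bound by the protein SLBP, in place of a poly(A) tail. Variant histones such as H3-3B and H2AZ1 come from separate genes with introns and poly(A) tails and are made throughout the cell cycle. Some clustered genes are also known to give longer, polyadenylated transcripts when cells leave the cycle.

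The stem-loop was looked for in the annotated transcripts of the members, since the kind of transcript differed between libraries. GENCODE 29 holds 58 transcripts of the 44 genes that are also in the files. The histone stem-loop consensus was found on the transcript strand of 24 of them, from 21 genes. It occurs in 0.0285% of all 206694 GENCODE transcripts. The 5 sites below cover the 4 forms of the stem-loop seen among the members. Capitals mark the stem-loop, with up to 5 bases on each side in lower case, 5′ to 3′.

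H2AC6: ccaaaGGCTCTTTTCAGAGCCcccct
H2BC4: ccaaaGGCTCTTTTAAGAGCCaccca
H2AC11: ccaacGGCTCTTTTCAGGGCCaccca
H4C11: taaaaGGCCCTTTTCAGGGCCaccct
H4C2: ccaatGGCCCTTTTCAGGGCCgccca

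The form in H2AC6 was in 14 transcripts of H2A, H2B and H3 genes. The form in H2BC4 was also in H2BC5 and H2BC7, and that in H2AC11 was in no other member transcript. All 6 H4 transcripts with a stem-loop, from H4C2, H4C8, H4C11 and H4C16, carried the form shown for H4C11 and H4C2. Spliced transcripts are in both groups: 5 of the 24 with the stem-loop are spliced, from H2AC6, H2BC15 and H4C16, and all 3 H2AC6 transcripts have 2 exons. Only 8 of the 24 transcripts end within 60 bases of the stem-loop; the other 16 run further, by 1114 bases in the coding H2AC6 transcript of 1654 nt. Of the other 34 transcripts, 18 are annotated at their coding length only, 5 are other transcripts of 1 exon and 11 are spliced transcripts without the stem-loop. A transcript annotated at its coding length has no 3′ end to search, so the absence of the letters says nothing about its mRNA.

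The promoters show what else the classes share. RefSeq promoters of GRCh38.p14, from 250 bases before to 50 after the gene start, were found for 64 of the 70 genes, and motifs were searched on both strands. CCAAT was in 54 of these 64 promoters and in 35.7% of all 27305 promoters. It was in every H1, H2A, H2B and H3 promoter and in 3 of 13 H4 promoters. TATAAA, the TATA box, was in 42 of 64 against 12.0% of all. The octamer ATTTGCAT was in 11 of 16 H2A and 14 of 18 H2B promoters, in 1 of 11 H3 promoters and in no H1 or H4 promoter, against 1.80% of all. AAACACA, known as the H1 box, was in 6 of 6 H1 promoters and in 3 promoters of other classes, against 5.76% of all. These matches are descriptions and were not tied to the expression values. The promoters of H1-4 at chr6:26156079-26156378, H2BC10 at chr6:26272681-26272980 and H4C11 at chr6:27823842-27824141, all on the plus strand, are shown as members of 3 classes that were high in young and low in senescent whole cells. Capitals mark the motifs named above, on either strand.

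H1-4: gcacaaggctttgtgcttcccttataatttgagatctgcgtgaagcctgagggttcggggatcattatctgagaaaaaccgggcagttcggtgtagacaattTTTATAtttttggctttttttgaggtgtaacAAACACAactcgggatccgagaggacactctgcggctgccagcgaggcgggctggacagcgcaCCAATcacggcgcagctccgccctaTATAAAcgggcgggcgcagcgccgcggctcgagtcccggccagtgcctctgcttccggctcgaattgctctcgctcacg
H2BC10: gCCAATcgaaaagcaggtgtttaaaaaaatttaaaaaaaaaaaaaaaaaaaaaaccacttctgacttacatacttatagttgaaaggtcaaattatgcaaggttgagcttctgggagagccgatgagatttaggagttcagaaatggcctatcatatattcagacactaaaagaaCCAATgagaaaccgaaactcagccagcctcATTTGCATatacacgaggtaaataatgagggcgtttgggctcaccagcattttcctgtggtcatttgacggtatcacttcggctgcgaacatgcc
H4C11: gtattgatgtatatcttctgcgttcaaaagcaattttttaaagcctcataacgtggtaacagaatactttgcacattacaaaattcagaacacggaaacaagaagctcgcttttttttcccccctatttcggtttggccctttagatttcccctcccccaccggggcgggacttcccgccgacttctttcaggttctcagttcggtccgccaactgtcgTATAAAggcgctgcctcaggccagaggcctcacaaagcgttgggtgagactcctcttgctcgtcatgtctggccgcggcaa

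Of the 44 genes, 38 reached 1 FPKM in at least 1 library and 34 reached 10 FPKM. H2AC1, H2AC18, H2BC1, H3C14, H3C15 and H4C6 were listed at 0 in all 4 libraries. H2AC1 and H2BC1 are known as testis histones. H2AC18, H3C14 and H3C15 share every 50-base window of their transcript with another histone gene, so their own levels are uncertain. Summed over the 44 genes, whole cells held 2145 FPKM young and 219 senescent, and mitoplasts held 2466 and 409. The young libraries were thus close to each other, and both senescent libraries were several-fold lower, by 9.80-fold in whole cells and 6.04-fold in mitoplasts.

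**Figure D1:**
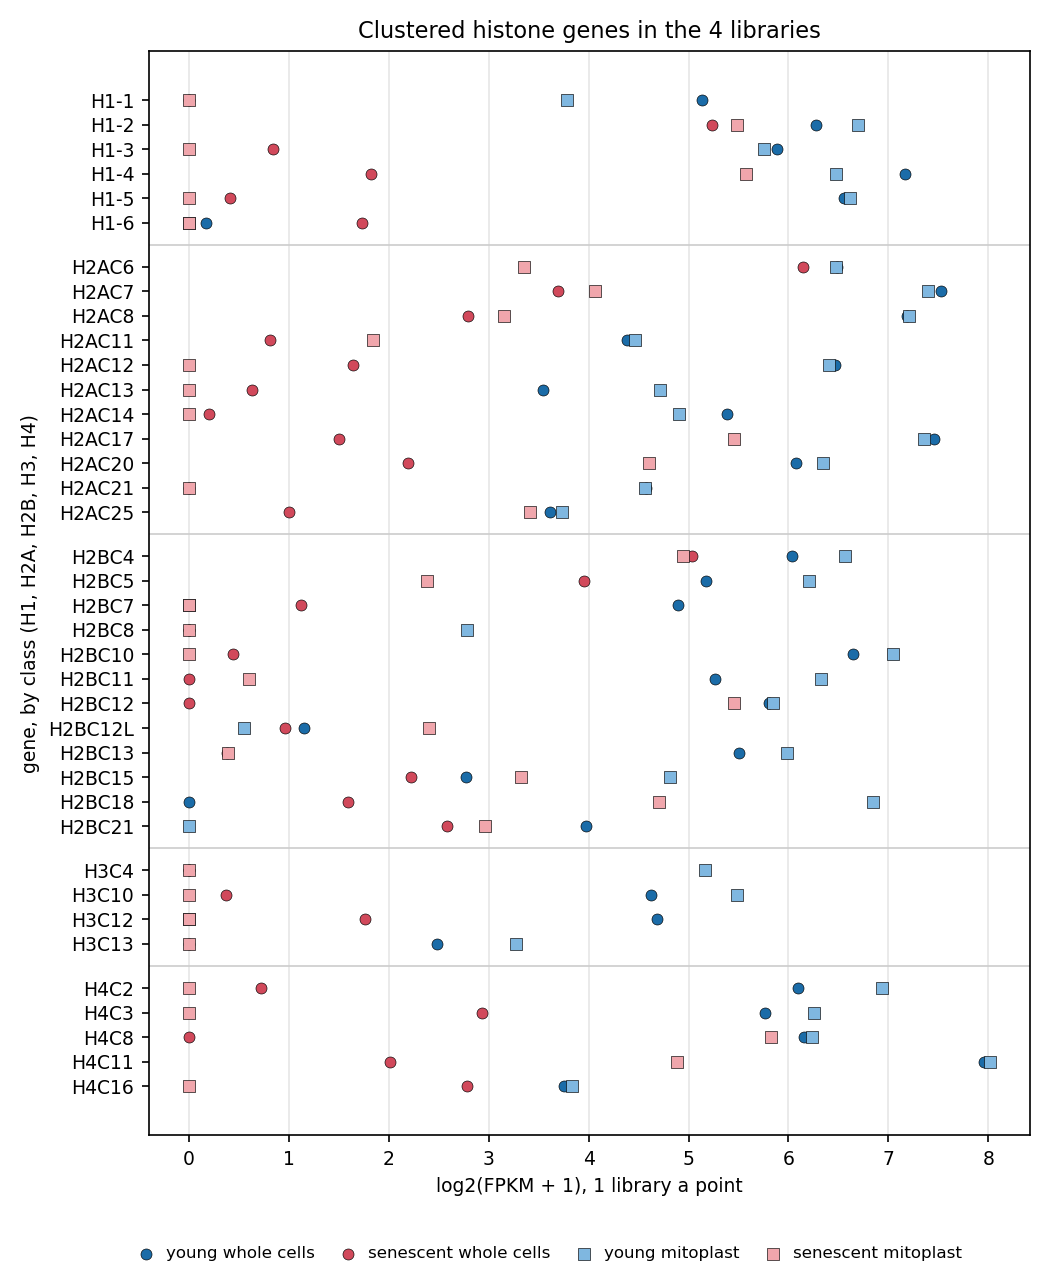
Level of the 38 clustered histone genes that reached 1 FPKM in a library, as log2(FPKM + 1) on the x axis, with 1 point a library (circles, whole cells; squares, mitoplasts; blue, young; red, senescent) and genes grouped by class on the y axis. H4C11 is highest, at 248 and 258 FPKM in the young libraries, and most senescent points lie left of the young ones.

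In whole cells, 29 of the 36 members at 1 FPKM or more in either library were lower in the senescent library, 2 were higher and 5 were neither. Over all 10687 protein-coding genes, 22.4% were lower and 14.6% higher. The median ratio of the members was −3.86, beside −0.21 for all protein-coding genes. The members' median less that of all coding genes was −3.64 as deposited, and −3.66, −3.68 and −3.67 under 3 rescalings. A rescaling moves both medians nearly alike, so this difference could hardly change and does not test the scaling. Of 5866 protein-coding genes at 10 FPKM or more in either library, 31 were members, all of them at that level in the young library. The 20, 50 and 100 genes with the lowest ratios held 0, 5 and 13 of these members. Genes that enter through the young library lean to low ratios, so these ranks add no separate support. In bulk RNA, fewer cells expressing these genes and less RNA per cell cannot be told apart.

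The linker histones H1 bind the DNA that enters and leaves the nucleosome. In whole cells H1-4, a widely expressed subtype, was at 143 FPKM young and 2.52 senescent, and in mitoplasts at 88.2 young and 46.6 senescent (whole-cell ratio −5.35). H1-5 was at 92.8, 0.329, 96.8 and 0 FPKM in the same order, which is kept below (−6.14). H1-3 was at 58.0, 0.794, 52.9 and 0 (−5.04). These 3 genes were at 52.9 FPKM or more in both young libraries and under 3 FPKM in senescent whole cells. H1-1 was at 34.1 and 12.8 FPKM in young whole cells and mitoplasts and listed at 0 in both senescent libraries. H1-2 was at 76.3, 36.6, 103 and 43.8 FPKM, with a whole-cell ratio of −1.04. H1-2 was the H1 gene that kept the highest level in senescent whole cells, 36.6 of the class's 42.6 FPKM. H1-6, the testis-specific H1, was at 0.122 and 2.32 FPKM in whole cells, higher in the senescent library (1.57) and listed at 0 in both mitoplast libraries.

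H2A pairs with H2B on the flanks of the nucleosome. Over matched genes it held the largest class sum, except in senescent mitoplasts, where H2B held 123 FPKM. The H2A sums were 850 FPKM young against 97.7 senescent in whole cells, and 840 against 111 in mitoplasts. The share of genes matched differed between classes, 13 of 17 for H2A and 6 of 15 for H4, so the sums do not rank whole classes. H2AC7 was at 184, 12.0, 168 and 15.7 FPKM (−3.83). H2AC17 was at 174, 1.82, 162 and 42.8 FPKM (−5.96). H2AC8 was at 144, 5.94, 147 and 7.88 FPKM (−4.39). The 3 genes led the class in both young libraries, and each was lower in both senescent ones. H2AC12 was at 87.4, 2.11, 83.8 and 0 FPKM (−4.83). H2AC20 was at 66.4, 3.57, 80.3 and 23.4 (−3.88). H2AC14 was at 40.7, 0.152, 28.95 and 0 (−5.18). Their young levels differed by at most 1.41-fold between whole cells and mitoplasts. H2AC21 was at 22.9 and 22.6 FPKM in the young libraries and listed at 0 in both senescent ones. H2AC11 was at 19.9, 0.7497, 21.1 and 2.58 FPKM (−3.58). H2AC13 was at 10.6, 0.553, 25.3 and 0 (−2.90), and H2AC25 at 11.2, 1.00, 12.3 and 9.66 (−2.61). H2AC25, which lies outside the large cluster on chromosome 6, was low in senescent whole cells but near its young level in the senescent mitoplast library.

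H2AC6 was the exception among the H2A genes. In whole cells it was at 88.4 FPKM young and 69.8 senescent, and in mitoplasts at 88.2 and 9.22. The whole-cell ratio was −0.34. H2AC6 made up most of the 97.7 FPKM of H2A in senescent whole cells, and 10 of the 11 measured H2A genes were lower there.

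H2B genes, the partners of H2A, ranged from members listed at 0 to members above 100 FPKM. H2BC10 was at 99.3, 0.358, 131 and 0 FPKM (−6.21). H2BC12 was at 54.9, 0, 56.7 and 42.8 FPKM. H2BC13 was at 44.5, 0.299, 62.6 and 0.315 (−5.13). In senescent whole cells these 3 genes were under 1 FPKM or listed at 0. H2BC11 was at 37.3, 0, 79.4 and 0.516 FPKM. H2BC7 was at 28.8 and 1.18 FPKM in young and senescent whole cells (−3.78) and listed at 0 in both mitoplast libraries, where its locus held an unnamed assembled transcript of 34.2 FPKM in the young one. H2BC5 was at 35.2, 14.5, 73.0 and 4.23 (−1.22), and H2BC4 at 64.4, 31.8, 94.0 and 29.7. With −0.9956, H2BC4 just missed the threshold and was not called, as was H4C16 at −0.98, while H1-2 at −1.04 was just called lower. H2BC15 was at 5.83, 3.65, 27.2 and 8.999 FPKM (−0.55), and its whole-cell ratio passed the threshold with coding transcripts alone (−2.77) or assembled transcripts added (−2.96). H2BC21 was at 14.7 and 4.99 FPKM in whole cells (−1.39), listed at 0 in the young mitoplast library and at 6.82 in the senescent one. H2BC18 was listed at 0 in young whole cells, at 2.00 FPKM in senescent ones (1.59), and at 114 and 25.0 in young and senescent mitoplasts. H2BC21 stood at the class median between whole cells, and H2BC18 at the class median between mitoplasts. H2BC12L and H2BC8 stayed under 10 FPKM in all 4 libraries, with highest levels of 4.27 and 5.86. Of 11 measured H2B genes 7 were lower in senescent whole cells and 1 was higher. The class median of −1.39 was nearer 0 than those of H1 (−5.09), H2A (−3.88), H3 (−2.92) and H4 (−5.38). This order depended on H2BC15, which stood at the H2B median under both alternatives given above. With assembled transcripts added, the H2B median (−2.96) was no longer nearer 0 than that of H3.

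H3 and H4 form the tetramer at the centre of the nucleosome. H4C11 had the highest level of any member, 248 and 258 FPKM in whole cells and mitoplasts of young cells, beside 3.03 and 28.5 in those of senescent cells (−5.95). H4C8 was at 70.4, 0, 74.5 and 55.8 FPKM. H4C2 was at 67.5, 0.647, 121 and 0 (−5.38). All 3 were under 4 FPKM in senescent whole cells, while the senescent mitoplast library ranged from 0 to 55.8. H4C3 was at 53.4, 6.62, 75.5 and 0 FPKM (−2.83). H4C16, the H4 gene on chromosome 12, was at 12.5, 5.88, 13.3 and 0 FPKM. Its whole-cell ratio of −0.98 passed the threshold with coding transcripts alone (−2.25). Of the H3 genes, H3C10 was at 23.6, 0.292, 43.8 and 0 FPKM (−4.25). H3C12 was at 24.7 and 2.39 FPKM in young and senescent whole cells (−2.92) and listed at 0 in both mitoplast libraries. H3C4 was listed at 0 in 3 libraries and at 35.0 FPKM in the young mitoplast library. The 6 matched H3 genes thus held low levels. Their sums were 52.9 FPKM young and 2.68 senescent in whole cells, and 87.5 and 0 in mitoplasts. The 7 H3 genes without a matched transcript are not in these sums, so the level of the whole class is unknown. H3C13, at 8.65 FPKM or less, was the only other matched H3 gene above 0.

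**Figure D2:**
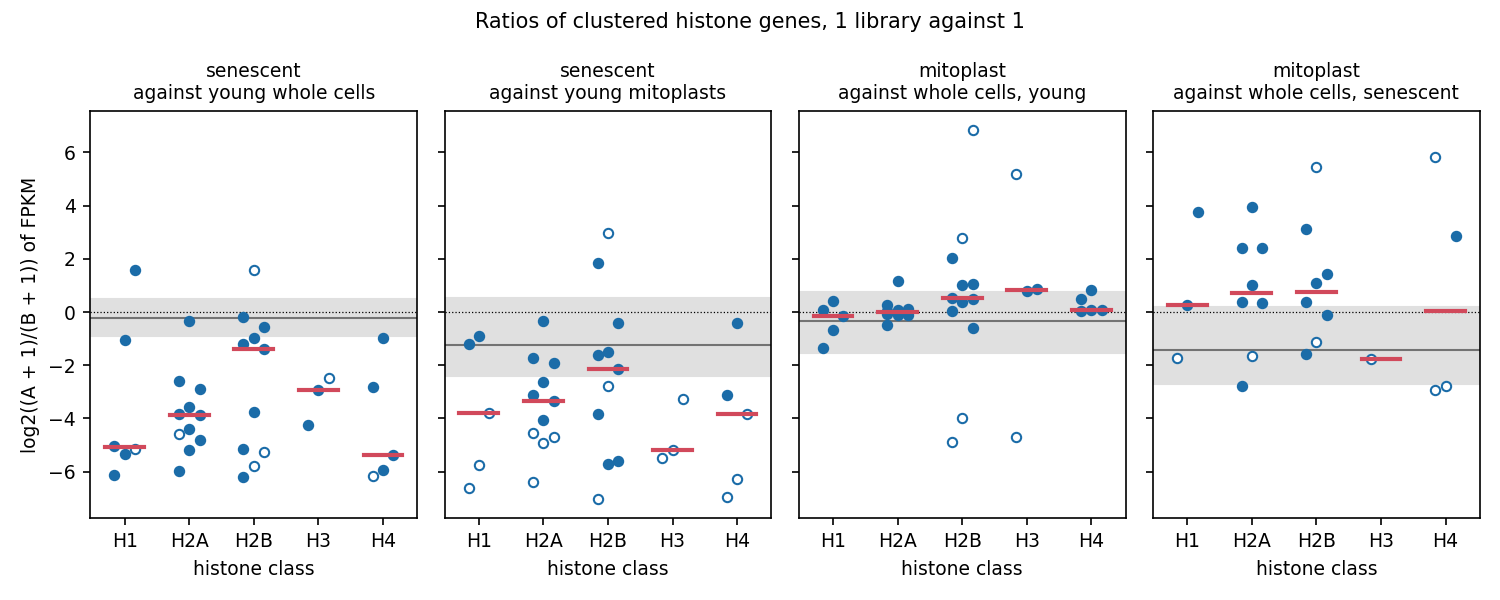
Ratios of the clustered histone genes, log2((A + 1)/(B + 1)) of FPKM on the y axis, by histone class in the 4 comparisons. Points are genes (open where 1 of the libraries lists 0), red bars are class medians, and the grey line and band are the median and the middle 50% of all protein-coding genes; in whole cells the class medians run from −1.39 for H2B to −5.38 for H4.

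The kinds of transcript behind the members' level differed between libraries. Spliced transcripts without the stem-loop held 0.676% of the members' summed annotated level in young whole cells, but 49.1% in senescent ones. Among mitoplasts they held 2.31% in young and 4.46% in senescent ones. Transcripts with the stem-loop held 40.8%, 18.8%, 45.6% and 41.7% in the same order. In summed level, the spliced kind without the stem-loop held 14.5 FPKM young and 107 senescent in whole cells, and all transcripts with it 875 and 41.3. Of the 5 members at 10 FPKM or more in senescent whole cells, H2AC6, H2BC4 and H2BC5 had such transcripts, while H1-2 and H2AC7 have 1 transcript of coding length each.

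This split was carried by a few genes. H2AC6 held 73.9 FPKM in transcripts with the stem-loop and 14.5 in its transcript of 1462 nt without it in young whole cells. The same kinds held 9.12 and 60.7 FPKM in senescent whole cells. The 9.12 FPKM lay in a transcript annotated for nonsense-mediated decay, and the coding one with the stem-loop was listed at 0 there. The near-equal gene level of H2AC6 in the pair of whole-cell libraries thus came from different transcripts. H2BC4 held 64.4 FPKM with and 0 without the stem-loop in young whole cells, and 7.59 and 24.2 in senescent whole cells. H2BC5 held 35.2 and 0 in young whole cells, and 0 and 14.5 in senescent whole cells. H2BC15 held 5.83 and 0, and then 0 and 3.65. All 4 genes thus had most of their annotated level in transcripts with the stem-loop in the young library and in those without it in the senescent one. In young whole cells the locus of H2BC15 also held an assembled transcript of 29.3 FPKM, which was not assigned to either kind. In H2BC18 the kind without it was at 2.00 FPKM in senescent whole cells alone. In H4C16 that kind was listed at 0 in every library, and its 5.88 FPKM in senescent whole cells lay in transcripts with the stem-loop. Over these 6 genes with both kinds, transcripts without the stem-loop made up 7.02% in young and 82.3% in senescent whole cells. Without H2AC6, spliced transcripts without the stem-loop held 31.4% of the other members' summed level in senescent whole cells. They had no annotated level in young whole cells. These shares leave out assembled transcripts, which were not assigned to a kind. In young whole cells such transcripts held 27.6 FPKM in the locus of H2BC5 and H2BC7, and 109 in that of H2BC18 and H2BC21. In senescent whole cells the locus of H2BC21 held 36.5 FPKM of them.

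In mitoplasts the split differed between genes. H2AC6 was in transcripts with the stem-loop alone in the young mitoplast library, at 88.2 FPKM, and in the one without it alone in the senescent mitoplast library, at 9.22. H2BC4 held 77.9 FPKM with and 16.1 without the stem-loop in the young mitoplast library, and 29.7 and 0 in the senescent one. H2BC5 held 59.4 and 13.6, and then 4.23 and 0. For H2BC4 and H2BC5 the kind without the stem-loop was thus listed at 0 where it was the larger kind in senescent whole cells. H2BC15 was in its transcript without the stem-loop alone in both mitoplast libraries, at 27.2 and 8.999 FPKM. Over the 6 genes, that kind made up 13.9% in the young and 23.6% in the senescent mitoplast library.

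AATAAA or ATTAAA, the signals for poly(A) addition, lay in the last 50 bases of 4 of the 11 spliced transcripts without the stem-loop, those of H2BC4, H2BC5 and H2BC15 and 1 of H2BC18. They also lay there in 12 of the 24 transcripts with the stem-loop and in 44.2% of all coding transcripts in GENCODE. In H2AC6, both transcripts with the stem-loop had a signal there and the one without the stem-loop had none. Transcript levels within a gene are estimates from reads that the transcripts share, and their error is not in the files. No source used here says whether the RNA was selected for poly(A) tails, and the part of that step in these values was not tested.

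**Figure D3:**
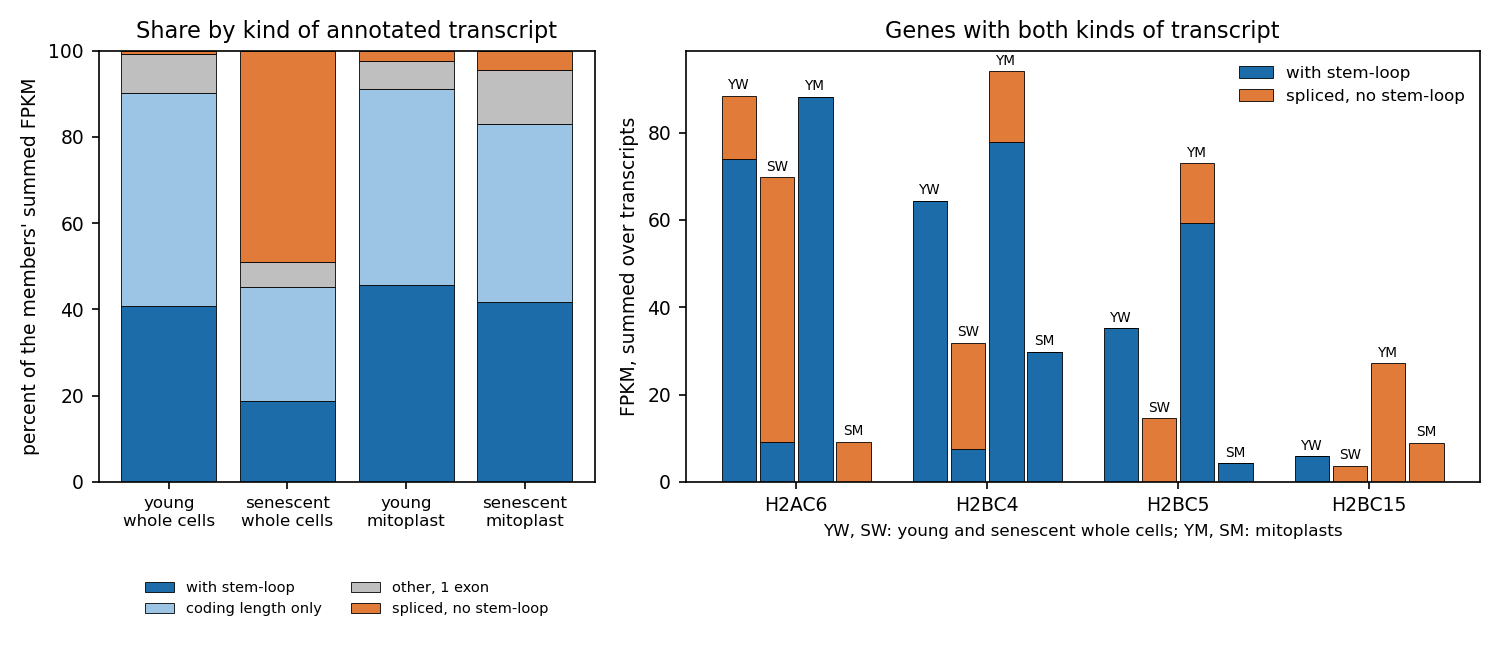
Left, percent of the members' summed FPKM in each library by kind of annotated transcript; right, FPKM of 4 genes with both kinds, stacked by kind, in young and senescent whole cells (YW, SW) and mitoplasts (YM, SM). Spliced transcripts without the stem-loop (orange) make up 49.1% in senescent whole cells and 0.676% to 4.46% in the other libraries.

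Between mitoplasts, 29 of 35 members were lower in the senescent library, 2 were higher and 4 were neither, and the median ratio was −3.33. Over all protein-coding genes, 56.5% were lower and 20.3% higher, with a median of −1.25. The share of members that were lower is thus nearer to the background than in whole cells, and the members' median less that of the coding genes was −2.08. Of 31 members at 10 FPKM or more in the young mitoplast library, 13 were listed at 0 in the senescent one, where 22.5% of protein-coding genes at that level were. In whole cells 5 of 31 were listed at 0, namely H1-1, H2AC21, H2BC11, H2BC12 and H4C8, against 3.94%. An exact 0 can be a failed estimate, since MT-CO1, a mitochondrial mRNA, was listed at 0 in both senescent libraries and at 8540 and 34115 FPKM in the young ones. With the members above 0 in both mitoplast libraries alone, 14 of 19 were lower, with a median of −1.90.

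In the senescent mitoplast library 10 members reached 10 FPKM, and in senescent whole cells 5 did; H1-2, H2AC7 and H2BC4 were in both sets. H4C8, at 55.8 FPKM, and H2BC12, at 42.8, were listed at 0 in senescent whole cells. The levels of H1-4 in senescent mitoplasts and whole cells were 46.6 and 2.52 FPKM, and those of H2AC17 were 42.8 and 1.82. H1-2 was at 43.8 and 36.6, and H2BC4 at 29.7 and 31.8. The mitoplast ratios of H4C8 (−0.41), H2BC12 (−0.40), H1-4 (−0.91) and H2AC25 (−0.32) were not called. After rescaling to an equal sum they turned to 1.08, 1.09, 0.58 and 1.10, and the first, second and last were then called higher. H1-2 stood at −1.22 between mitoplasts and turned to 0.27 with that rescaling.

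Mitoplasts and whole cells of young cells had similar levels of the clustered histone genes. Of 37 members, 4 were lower in mitoplasts, 7 higher and 26 neither, while 35.2% of all protein-coding genes were lower and 20.9% higher. The median ratio was 0.08, beside −0.33 for all protein-coding genes, and turned to −0.55 after rescaling to an equal sum. The class medians were −0.13 for H1, −0.00 for H2A, 0.51 for H2B, 0.83 for H3 and 0.08 for H4, and that rescaling put all but H3 below 0. The 7 higher genes were H2AC13, H2BC5, H2BC8, H2BC11, H2BC15, H2BC18 and H3C4. The 4 lower ones were H1-1, H2BC7, H2BC21 and H3C12, of which the last 3 were listed at 0 in mitoplasts. With members above 0 in both libraries alone, 1 of 31 was lower and 4 were higher.

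In senescent cells 24 members could be compared. Of these, 8 were lower in mitoplasts, 11 higher and 5 neither, beside 61% and 18.4% of all protein-coding genes. The median was 0.38 against −1.44. H4C8 and H2BC12 had the highest ratios, 5.83 and 5.45, each against a library that lists 0. Among members above 0 in both libraries, H2AC17 stood at 3.95, H1-4 at 3.76, H2BC18 at 3.11 and H4C11 at 2.87. The lowest were H4C3 at −2.93 and H2AC6 at −2.79.

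Histone sequences and loci limit which gene a value belongs to. Over 50% of the 50-base windows of H2AC13, H2AC14, H2AC17, H2AC18, H2BC12, H3C13, H3C14, H3C15 and H4C11 also occur in another histone gene, and 16 of the 44 genes share none. The spliced transcript of H3C12, the only one of that gene above 0 in senescent whole cells, shares 62.8% of its windows with H2AC17. Genes that share none include all 6 H1 genes, H2AC8, H3C10 and H4C8; among them H1-5, H2AC8 and H3C10 were lower in both senescent libraries, H1-4 and H4C8 were lower in whole cells and not called between mitoplasts, and H1-6 was higher in senescent whole cells. H2BC18 and H2BC21 lay in 1 locus in young whole cells together with an assembled transcript of 109 FPKM that belongs to neither by name. H2BC21 had a similar neighbour of 36.5 FPKM in senescent whole cells and 150 in the young mitoplast library. H2BC5 and H2BC7 shared a locus with an assembled transcript of 27.6 FPKM in young whole cells, and H2BC15 with one of 29.3. With members alone in their locus, 19 of 23 were lower in senescent whole cells and 1 was higher.

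Members often lie head to head. In RefSeq order, 12 pairs had divergent starts within 1000 bases, of which 11 joined an H2A and an H2B gene. Both genes had a matched transcript in 7. H2BC4 and H2AC6, the pair with spliced transcripts, stood at whole-cell ratios of −0.9956 and −0.34. H2AC7 and H2BC7 stood at −3.83 and −3.78, H2BC11 and H2AC11 at −5.26 and −3.58, H2BC13 and H2AC13 at −5.13 and −2.90, and H2BC21 and H2AC20 at −1.39 and −3.88. Neither gene of the first pair was thus called, and both genes of the other 4 pairs with ratios for both were called lower. In the remaining pairs, H2AC1 and H2BC1 were listed at 0 in all 4 libraries. H2BC8 was listed at 0 in both whole-cell libraries, beside H2AC8 at 144 FPKM young and 5.94 senescent. By chromosome, 24 of 28 members on chromosome 6 and 5 of 6 on chromosome 1 were lower in senescent whole cells, and neither H4C16 on chromosome 12 nor H2BC12L on chromosome 21 was.

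Histones listed as replication-independent gave the nearest comparison. Of 10 measured, 7 were lower in senescent whole cells, beside 22.4% of all protein-coding genes, and none was higher. The median was −1.68, nearer 0 than that of the clustered genes. H3-3B and H3-3A, the genes of histone H3.3, were at 116 and 43.0 FPKM in young cells, beside 32.7 and 19.5 in senescent ones. H2AZ1, a variant at promoters, was at 48.6 and 7.31. H2AX, the DNA damage variant, was at 45.8 and 5.09, the lowest whole-cell ratio of the list (−2.94). Whether transcripts of H2AX or of the other listed genes carry the stem-loop is not given here. H2AJ, a variant known to accumulate in senescent fibroblasts, was at 19.8 and 24.0 (0.26) and did not pass the threshold. In mitoplasts 9 of 10 were lower, beside 56.5% of all protein-coding genes, with a median of −3.19 beside −1.25. The difference between this list and the clustered genes was not tested, as the libraries have no replicates.

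Factors that process histone mRNA ends were mostly not called in whole cells. Of 10 measured, 2 were lower and none was higher, with a median of −0.63. The share of lower ones was near the 22.4% of all protein-coding genes, whose median was −0.21. SLBP, the stem-loop binding protein, was at 11.2 FPKM young and 14.7 senescent in whole cells, and at 33.1 and 4.16 in mitoplasts. LSM10, a subunit of the U7 particle, was at 13.96 and 9.97 in whole cells, and LSM11, its partner, stayed under 1 FPKM. ZNF473, a zinc finger protein of the same particle, was at 18.2 and 11.7, CPSF3, the nuclease that cuts the pre-mRNA, at 16.7 and 9.85, and ERI1, an exonuclease of the stem-loop, at 39.2 and 26.7. The 2 lower ones, named after their values were seen, were LSM1, a subunit of the mRNA decay complex, at 17.9 FPKM young and 0 senescent, and UPF1, a decay helicase, at 29.9 and 5.71 (−2.20). RNU7-1, the U7 RNA, was listed at 0 in all 4 libraries. Between mitoplasts, 5 of 10 were lower and 1 was higher (median −1.04), near the 56.5% and 20.3% of all protein-coding genes with their median of −1.25.

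Regulators of histone gene transcription were lower in 5 of 8 cases in whole cells, beside 22.4% of all protein-coding genes. None was higher, and the median was −1.02. CRAMP1 at −1.03 and YY1 at −1.02, named after their values were seen, only just passed the threshold. NPAT, the coactivator of the histone locus body, was listed at 0 in both whole-cell libraries and at 1.09 FPKM in the young mitoplast library. CASP8AP2, also called FLASH and a partner of NPAT, was at 24.7 FPKM in young whole cells but listed at 0 in senescent ones. CCNE1, encoding cyclin E1, was at 2.04 and 1.78, CDK2, its kinase, at 6.31 and 1.75, and E2F1 at 4.07 and 0.982. CCNE2, encoding cyclin E2, was at 26.2 FPKM in senescent mitoplasts and listed at 0 in the other 3 libraries. Between mitoplasts, 7 of 9 were lower and 2 higher, beside 56.5% and 20.3% of all protein-coding genes. The median was −1.44, near their −1.25.

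Histone chaperones and enzymes that acetylate new H4 were lower in 11 of 17 cases in whole cells and higher in 2, with a median of −1.34. Over all protein-coding genes, 22.4% were lower and 14.6% higher. NASP, which holds free H3 and H4, was at 176 FPKM young and 35.1 senescent in whole cells (−2.30). CHAF1A and CHAF1B, subunits of the chromatin assembly factor CAF-1, were at 6.90 and 2.12 and at 5.37 and 0. ASF1B, a chaperone of dividing cells, was at 2.43 and 0.215, and its relative ASF1A at 9.20 and 12.0. HAT1, which acetylates new H4, was listed at 0 in young and at 2.28 in senescent whole cells. Between mitoplasts, 14 of 16 were lower and 2 higher (median −1.93), beside 56.5% and 20.3% of all protein-coding genes.

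DNA replication genes were lower beside the histones in senescent whole cells, in 23 of 27 cases with none higher and a median of −2.10. The share over all protein-coding genes was 22.4%. PCNA, the sliding clamp, was at 21.4 and 8.28 FPKM, and MCM4 and MCM5, subunits of the replicative helicase, at 68.8 and 14.7 and at 25.7 and 3.51. MCM6 was at 4.01 and 0.917, MCM3 at 8.24 and 0, and RRM2, a subunit of ribonucleotide reductase, was under 1 FPKM in both. The share of S-phase cells in either culture was not measured, and its part in the histone values was not tested. Between mitoplasts, 20 of 26 were lower and 3 higher (median −2.58), beside 56.5% and 20.3% of all protein-coding genes.

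**Figure D4:**
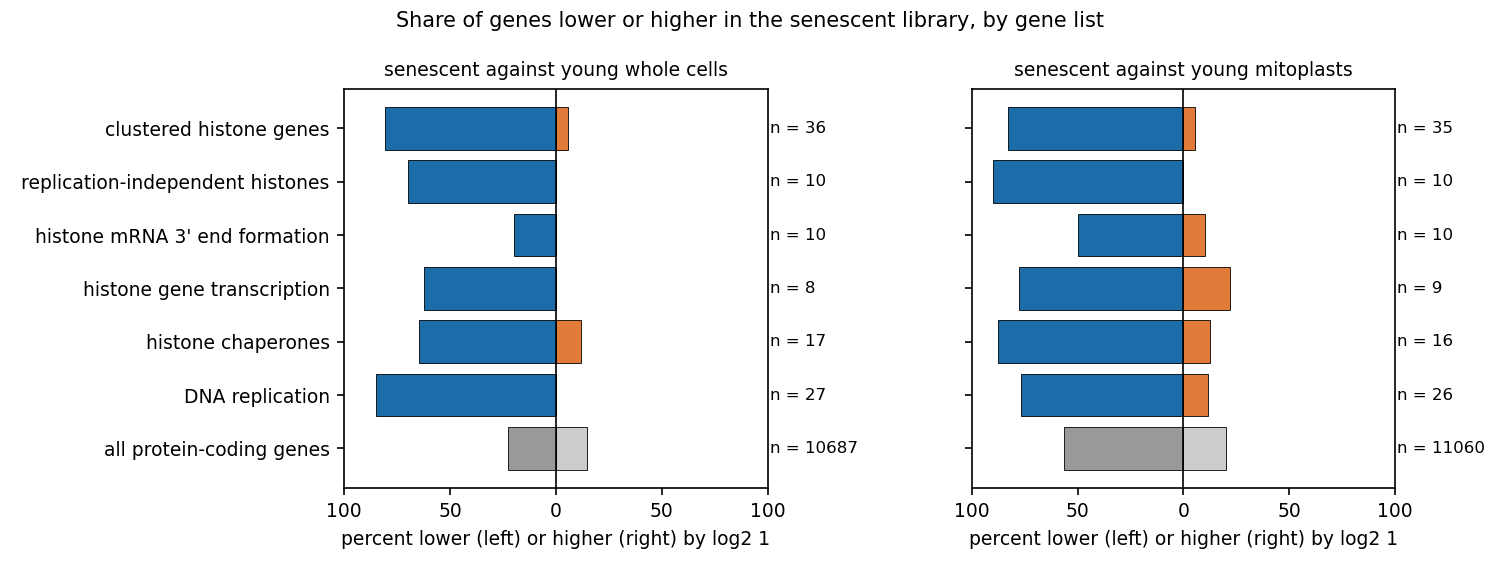
Percent of genes lower (left of 0, blue) or higher (right of 0, orange) by 1 or more on the log2 scale in the senescent library, for the clustered histone genes, 5 lists of related genes and all protein-coding genes (grey), with the number compared beside each bar. In whole cells 29 of 36 clustered histone genes and 23 of 27 DNA replication genes were lower, beside 22.4% of all protein-coding genes.

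The libraries differed beyond the histones. Protein-coding genes at 1 FPKM or more numbered 9482 to 9736 in 3 libraries and 6594 in the senescent mitoplast library, and assembled transcripts without a gene name held 53.7% to 97.3% of the summed FPKM. All 11 fibroblast markers reached 1 FPKM in both whole-cell libraries, with COL1A1 at 1501 and 846, while VIM was listed at 0 in the senescent mitoplast library. Of 8 epithelial markers 3 reached 1 FPKM in each whole-cell library, of 4 endothelial markers 1 (TEK), and of 7 blood and immune markers none. In young and senescent mitoplasts, 10 and 9 fibroblast, 4 and 2 epithelial, 1 and 2 endothelial, and 1 and 0 blood and immune markers did. PTPRC, a leukocyte marker, was at 12.4 FPKM in the young mitoplast library, and VWF, an endothelial one, at 23.3 in the senescent mitoplast library, each under 1 FPKM elsewhere. Their part in the histone values was not tested. MT-CYB was higher in mitoplasts, at 4257 and 16952 FPKM in the young pair and 14663 and 29903 in the senescent one. For the cytosolic GAPDH, young whole cells and mitoplasts held 953 and 1818 FPKM and the senescent pair 863 and 368, and ACTB at 5349 and 3176 and at 3786 and 533. The nuclear RNA MALAT1 was at 1265 and 89.0 FPKM, and at 2305 and 507, and NEAT1 at 12.6 and 2.67, and at 24.3 and 0. Nuclear-encoded mRNA was thus present in the mitoplast libraries beside the histone mRNAs, and its part in the histone values was not tested.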

How the data were processed

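RNA-seq of whole cells and mitoplasts from young and senescent WI-38 cells gave 4 libraries, 1 a group. The deposited values are FPKM per transcript of a merged set of 393483 transcripts, per the file headers. Cufflinks 2.2.1, TopHat2 2.0.14, Cuffdiff and the build hg19 are listed, per the submitters' processing notes. No source used here gives the annotation release, the strand setting or the RNA selection. Without counts in the files, depth and counting error are unknown.

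Ensembl transcript names were matched to symbols with GENCODE 29, a gene name table and RefSeq (93.0% of 185591 annotated transcripts), which serve for names, types, sequence and gene order alone, as they are on another build. FPKM of annotated transcripts was summed per gene with Python 3.11.15 and pandas 2.3.3. Genes at 1 FPKM or more in either library were compared as log2((A + 1)/(B + 1)), with no p-value. The ratio and count steps were tested on simulated data. Members that reached 10 FPKM were named with all 4 values, and up to 6 genes of each list. The members and lists (replication-independent histones, 3′ end formation, transcription, chaperones, DNA replication, fraction checks and cell type markers) were chosen with earlier results of these data known. The values of 1 gene of these lists are not reported here. Alternatives were another pseudocount, 2 other filters, 3 rescalings, coding transcripts alone, assembled transcripts added, and members above 0 in both libraries.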

Additional observations from a re-analysis of the deposited data

Results flagged for a closer look

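The 3 H2B genes H2BC5, H2BC18 and H2BC21 had ratios past the threshold in opposite directions in a pair of comparisons. Each rests on single libraries, and the difference between the comparisons was not tested. H2BC18 stood at 1.59 for senescent against young whole cells and at −2.14 between mitoplasts. H2BC21 stood at −1.39 between whole cells and at 2.97 between mitoplasts. Each of this pair was listed at 0 in 1 young library, and the 2 genes shared a locus with an assembled transcript of 109 FPKM in young whole cells. H2BC5 stood at 1.03 for mitoplasts against whole cells in young cells and at −1.57 in senescent cells.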

How the results depend on the processing

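No paired analysis was possible because each group has 1 library, and for the same reason no replicate could be left out. Of 136 alternative values of the counts, medians and transcript shares, 104 stayed close to the reported value, 31 moved and 1 reversed. Some alternatives could change little. Among the members, adding assembled transcripts changed only H2BC15 in young whole cells. Leaving out the filter kept the same members in both comparisons of senescent with young libraries. The cause was not tested where none is given. In senescent against young whole cells the median was −4.57 with a pseudocount of 0.1, and 0 members were higher with a filter of 5 FPKM. Members above 0 in both libraries left 1 higher. Between mitoplasts the median was −4.20 with a pseudocount of 0.1, and 1 member was higher with a filter of 5 FPKM. There, members above 0 in both libraries gave 14 lower, 1 higher and a median of −1.90 from fewer genes, and an equal sum gave 5 higher and a median of −2.65. For mitoplasts against whole cells in young cells, members above 0 in both libraries gave 1 lower and 4 higher, an equal sum gave 4 higher and reversed the median to −0.55, and an equal upper quartile gave 13 higher. In senescent cells a filter of 5 FPKM gave 4 lower, members above 0 in both libraries gave 2 lower and a median of 1.07, and rescaling by the median of ratios gave a median of 1.38. Added after seeing the data, members alone in their locus gave 19 lower and 1 higher in whole cells, 1 higher between mitoplasts, 1 lower and 1 higher in young cells and 7 higher in senescent cells. Likewise, members with a transcript of 450 nt or more gave 15 lower and a median of −2.76 in whole cells, 16 lower between mitoplasts and 6 higher in senescent cells. Without H2AC6, also added later, spliced transcripts without the stem-loop held 0% of the annotated level in young and 31.4% in senescent whole cells. Their share was 2.25% in senescent mitoplasts. Of single genes, a value called in neither setting counted as kept whatever its sign. H1-4 between mitoplasts with an equal sum, given above, is such a case. In this count 1157 values were kept, 18 passed the threshold only in the alternative and 18 lost it. A further 6 changed sign from or to a called ratio. These were H1-2 (0.27), H2AC25 (1.10), H2BC12 (1.09) and H4C8 (1.08) between mitoplasts with an equal sum, and H2BC15 for mitoplasts against whole cells in young cells, −2.77 with coding transcripts alone and −0.36 with assembled transcripts added. The log2 scaling factors, which move high levels by about their size and levels at 0 not at all, were 0.17 to 0.27 in whole cells, −0.09 to 1.51 between mitoplasts, −0.67 to 0.53 in young cells and 0.20 to 1.09 in senescent cells.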

Other observations

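Most pseudogenes of the clusters stayed under 1 FPKM in the annotated values. Of 16 with a transcript in the files, 2 reached 1 FPKM. H2ACP2 was at 32.0 FPKM young and 22.2 senescent in whole cells, and at 10.8 and 0 in mitoplasts. H2BC20P stayed between 1.12 and 2.70 FPKM in all 4 libraries, in a locus that also held H2BC21.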
